A study of Rattus norvegicus with 3 samples.

Results

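The array that measured the rat carotid artery 7 days after balloon injury carried many probes that the array of the uninjured artery did not have. Those probes are described here: gene probes of the day 7 design, free of outlier flags, whose probe name was absent from the uninjured array. Of 30234 gene probes with an unflagged spot on the day 7 array, 19646 (65.0%) met this rule, and another 10588 were on both designs. A further 119 probes of the day 7 design alone had only flagged spots and gave no value. Through their RefSeq accessions 9916 of the 19646 probes (50.5%) matched a gene, which gave 8413 genes; 7341 of these genes were on the day 7 array through such probes alone, and 1072 also had a probe on both designs.

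The series compared whole common carotid arteries of male Wistar rats that were uninjured or had been injured with a balloon 7 or 21 days earlier, with 1 one-colour array analysed here for each of the 3 groups. All arteries were flushed with cold saline and frozen before RNA extraction. The labels name no genetic change, no drug and no age. Because the probes described below have no counterpart on the uninjured array, no ratio to it was formed: every value is a level on the single day 7 array, no change after injury can be read from it, and no test across samples and no p-value is possible. The design text speaks of more than 1 experiment per time with different rats; arrays beyond these 3 were not analysed here.

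As background, balloon injury strips the endothelium from the inner surface of an artery and stretches its muscular wall. In the following weeks smooth muscle cells divide, lose part of their contractile programme, migrate inward and lay down collagen, elastin and proteoglycans as a neointima, while macrophages and other blood cells enter the wall and endothelium regrows from the edges. RNA of a whole vessel also includes its outer coat, with fibroblasts, nerve, fat and small vessels. In such RNA, fewer cells of a type and less RNA per cell cannot be told apart.

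The level of a probe is given as its processed signal in intensity units and as its percentile among all 30234 gene probes of the array. A probe's brightness depends on its own sequence as well as on its transcript, so the order of signals is an order of probes and not of transcript amounts. The scanner software calls a spot well above background when its signal clearly exceeds the local background, and a probe was called so when more than 0.5 of its unflagged spots were. Of the probes of the day 7 design alone, 14743 were well above background (75.0%, exact Clopper-Pearson 95% interval 74.4% to 75.6%, counting error only), against 8382 of the 10588 probes on both designs (79.2%, interval 78.4% to 79.9%). The median signal was 45.0 for the former and 54.6 for the latter. The former reached further up: 2071 of them (10.5%) lay in the brightest 10% of the array, against 953 (9.0%) of the probes on both designs, and their 95th signal percentile was 3239 against 2290.4. No gene spot was saturated, and the highest signal of any gene probe was 123474. The 153 negative control spots had a median of 2.84 and a highest signal of 25.9, and 6 of them were called well above background. Called and uncalled probes of the day 7 design alone overlapped between 10.7, the lowest called signal, and 19.8, the highest uncalled one.

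**Figure D1:**
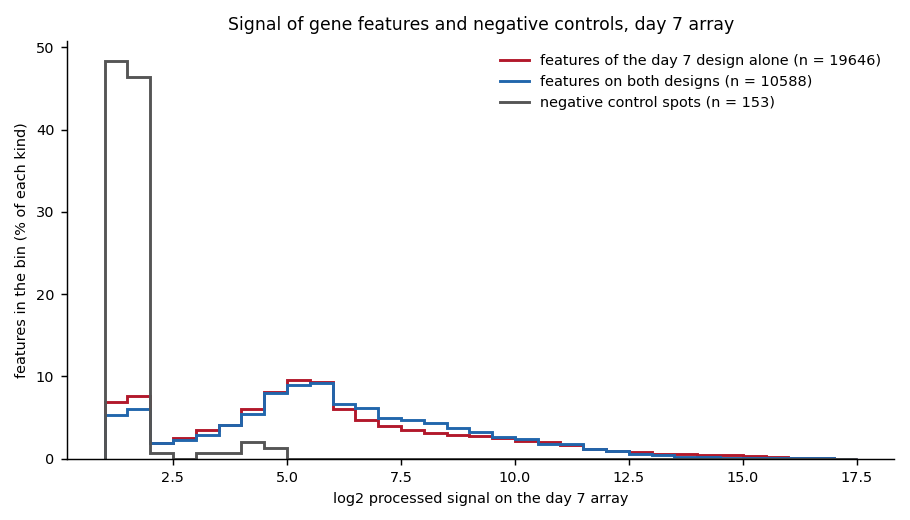
Share of gene probes or control spots (y axis, percent of each kind) in bins of log2 processed signal (x axis) on the day 7 array, for the 19646 probes of the day 7 design alone, the 10588 probes on both designs and the 153 negative control spots. The curves of both kinds of gene probe overlap over the whole range, and nearly all control spots sit at its lower end.

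Errors within the array could be gauged in several ways. First, 612 probes of the day 7 design alone had 6 to 10 unflagged spots each. The SD of their log2 signal between spots had a median of 0.10 over 1000 intensity units, 0.08 between 100 and 1000, 0.26 between 30 and 100 and 1.15 under 30, so levels under 30 were poorly fixed even within the array. Second, the scanner software's error estimate of a spot had a median of 10% of the signal over 1000 and 34.0% under 30. It is given for each single spot and is not a spread observed between spots. Finally, 1254 genes had exactly 2 probes of the day 7 design alone, and here the spread was far larger than between spots: the SD of 1 probe was 2.16 on the log2 scale, the median pair was 3.81-fold apart, and 611 pairs (48.7%) were over 4-fold apart. In 322 pairs 1 probe was well above background and the other was not. For the 1072 genes with a probe of each kind the SD of 1 probe was 2.22. The order of genes whose levels lie within a few fold of each other is therefore not fixed, and wider gaps can mislead too. Of 1366 genes with several such probes, 273 had their brightest and dimmest over 16-fold apart. Where the brightest or lowest genes are named below, they are so only by the signal of their brightest probe.

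**Figure D2:**
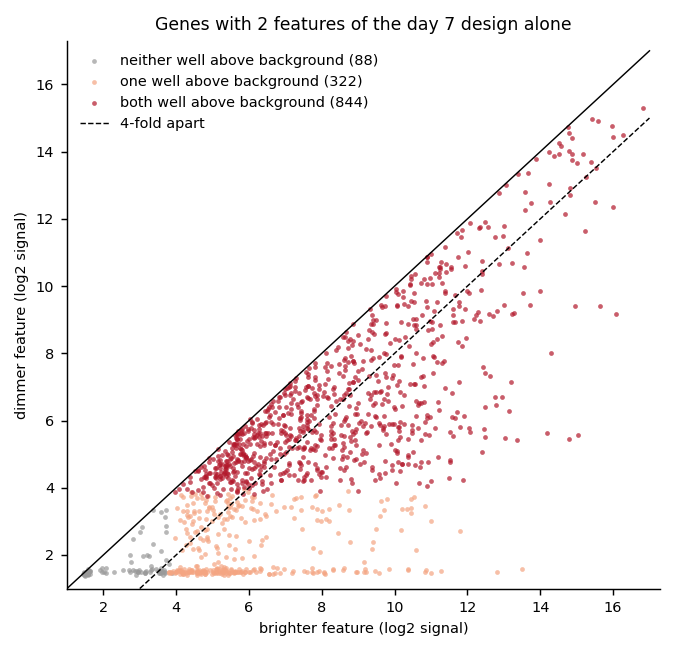
Log2 signal of the dimmer probe (y axis) against that of the brighter probe (x axis) for the 1254 genes with exactly 2 probes of the day 7 design alone, with colour for how many of the pair were well above background. The solid line marks equal signals and the dashed line 4-fold; 611 pairs lie below the dashed line.

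Receptors for smell, taste and pheromones gave a level to read the other genes against, since these G protein-coupled receptors are best known from sensory epithelia and not from artery. This reference was chosen after the values were seen. Of 919 such chemosensory receptor genes with a probe of the day 7 design alone, 483 (52.6%) were called well above background, at a median percentile of 25.5 and a median signal of 16.5. The share was 53.2% of 771 odorant receptor genes, 42.6% of 47 type 1 and 54.8% of 62 type 2 vomeronasal receptor genes, 51.9% of 27 taste receptor genes and 41.7% of 12 trace amine receptor genes. A call of well above background was thus common in these families too. Of these 919 genes 95% lay below percentile 57.9, a signal of 65.3, which is called the chemosensory level below. In the brightest 10% lay 2 of them: the vomeronasal receptor genes Vom2r34, with probes at 2325 and 29.8, and Vom1r55, with its single probe at 1508. By gene, with each gene taken at its brightest probe, 6712 of 8413 genes (79.8%) were well above background, 1025 (12.2%) were in the brightest 10% and 4043 (48.1%) were above the chemosensory level. Without the chemosensory genes the share above that level was 53.3% (3997 of 7494). The list counts below are to be read against these shares of all named genes.

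Of the 30 named genes of highest signal 21 encode proteins of the cytosolic ribosome, as do 50 of the brightest 100. The others of these 30 were Eln, which encodes tropoelastin, the rubber-like protein of arterial lamellae, Actg1 (cytoplasmic gamma-actin), Myl6 (a non-phosphorylated light chain of smooth muscle and non-muscle myosin), Col6a2 (a chain of the beaded-filament collagen VI), Ceacam9 (a member of the carcinoembryonic antigen adhesion family), the ubiquitin gene Ubb, the haemoglobin alpha gene Hba-a1, the ferritin heavy chain gene Fth1, and Gapdh. Rplp0, the acidic stalk protein of the large ribosomal subunit, had probes at 115341 ± 11534 (scanner error) and 40375. Eln had 1 probe at 69681 ± 6968 and another at 575, so its place among the brightest genes rested on 1 of its probes. Actg1 read 65303 and 5229, and Gapdh 37136 on the highest and 3778 on the lowest of 3 probes. Hba-a1 read 50680.1 and 686, also far apart. Fth1 had probes at 43549 and 32028, both within the brightest 10%. Myl6 (58054 ± 5805), Col6a2 (49315) and Ceacam9 (55591) each had a single probe of this kind. The files hold no probe sequences, so whether a probe also binds transcripts of related genes, such as processed copies of ribosomal protein genes or other Ceacam or haemoglobin genes, was not tested.

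**Figure D3:**
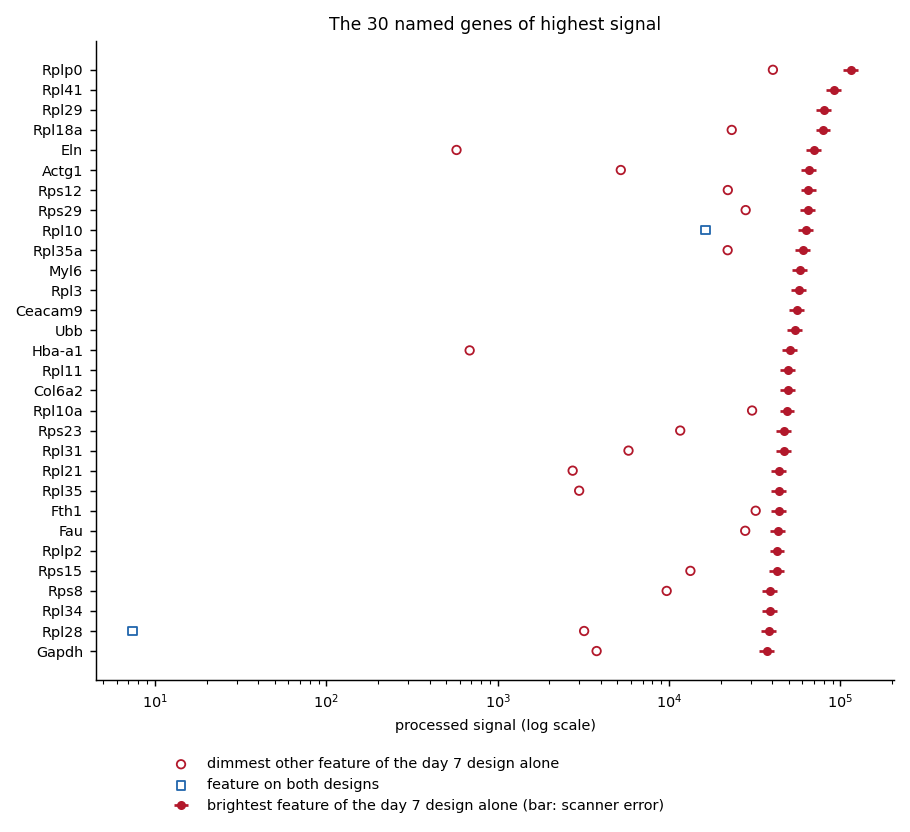
Processed signal (x axis, log scale) of the 30 named genes of highest signal (y axis). Filled points with bars are the brightest probe and its scanner error, open circles the dimmest other probe of the day 7 design alone, and open squares a probe on both designs. Filled points lie between 37136 (Gapdh) and 115341 (Rplp0). Other probes of several genes read far lower, with the widest gaps for Eln, Hba-a1 and Rpl28.

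Promoters were described by gene signal, with no test. RefSeq sequences (assembly GRCr8) of the 250 bases before the gene start were found for 6898 of the 8413 genes, and 3 motifs were searched on both strands: GGGCGG, the core of the GC box bound by Sp1-type factors, CCAAT, bound by NF-Y, and TATAAA, the TATA box. GGGCGG was present in 65.0% of 868 genes of the brightest 10% and in 46.3% of 4636 other genes well above background. The share was 25.9% in 1394 genes not well above background. Over all 6898 genes it was 44.5%, and over all 27457 promoters of the annotation 32.4%. TATAAA ran the other way, at 8.41%, 11% and 20.2%, against 12.5% of the 6898 genes and 13.1% of all promoters. CCAAT varied less, at 38.5%, 35.4% and 33.7%, against 35.4% of the 6898 genes and 34.3% of all promoters. The median GC content was 60.4%, 57.2% and 48.4% in the same order, and 56.4% over the 6898 genes. Chemosensory receptor genes contributed much to the dim end: their 785 promoters held GGGCGG in 0.510% and TATAAA in 35.9%, with a median GC content of 34.4%. Without them, the genes not well above background had GGGCGG in 35.4% and TATAAA in 12.9% of 1018 promoters. Leaving chemosensory and ribosomal protein genes out of the brightest 10% gave GGGCGG in 65.6% and TATAAA in 8.12% of 813. The CArG box, the site of serum response factor in muscle and actin genes, was found by its strict consensus in 0.922% of the brightest 868. Its share was 1.17% over the 6898 genes and 1.5% over all promoters. These are matches of letters on either strand and at any place in the 250 bases, with no measure of binding.

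Promoters of 4 bright genes, of the smooth muscle actin gene Acta2 and, as a dim contrast, of the prolactin gene Prl show the letters behind these shares; they were picked after the values were seen. Each is given 5′ to 3′ on the gene's strand in GRCr8, with capitals for the letters of the GC box as searched, of the CCAAT motif, of the TATA box and of the CArG box, on either strand. Rplp0 lies at chr12:46718391-46718640 (minus strand), Rpl41 at chr7:1563498-1563747 (minus), Actg1 at chr10:106120952-106121201 (minus), Myl6 at chr7:1498344-1498593 (minus), Acta2 at chr1:241172504-241172753 (minus) and Prl at chr17:38298218-38298467 (minus).
Rplp0: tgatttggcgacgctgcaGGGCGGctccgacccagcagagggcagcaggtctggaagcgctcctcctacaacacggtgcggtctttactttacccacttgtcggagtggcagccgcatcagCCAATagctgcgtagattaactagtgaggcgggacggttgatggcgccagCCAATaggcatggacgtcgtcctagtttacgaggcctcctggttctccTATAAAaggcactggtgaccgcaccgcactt
Rpl41: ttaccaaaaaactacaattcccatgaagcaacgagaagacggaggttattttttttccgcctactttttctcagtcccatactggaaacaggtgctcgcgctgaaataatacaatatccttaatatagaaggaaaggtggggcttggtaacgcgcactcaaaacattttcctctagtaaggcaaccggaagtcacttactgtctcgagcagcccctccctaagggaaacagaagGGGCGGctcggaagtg
Actg1: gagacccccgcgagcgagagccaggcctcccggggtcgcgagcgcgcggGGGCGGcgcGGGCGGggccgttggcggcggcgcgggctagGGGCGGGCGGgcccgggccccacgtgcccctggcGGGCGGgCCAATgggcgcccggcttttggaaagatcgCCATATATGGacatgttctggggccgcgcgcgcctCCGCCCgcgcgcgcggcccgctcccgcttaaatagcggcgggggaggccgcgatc
Myl6: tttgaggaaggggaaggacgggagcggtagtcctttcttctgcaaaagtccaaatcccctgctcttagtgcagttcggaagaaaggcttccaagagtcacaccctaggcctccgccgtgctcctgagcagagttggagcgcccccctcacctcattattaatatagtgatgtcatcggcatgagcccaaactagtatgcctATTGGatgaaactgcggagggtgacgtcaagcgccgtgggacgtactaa
Acta2: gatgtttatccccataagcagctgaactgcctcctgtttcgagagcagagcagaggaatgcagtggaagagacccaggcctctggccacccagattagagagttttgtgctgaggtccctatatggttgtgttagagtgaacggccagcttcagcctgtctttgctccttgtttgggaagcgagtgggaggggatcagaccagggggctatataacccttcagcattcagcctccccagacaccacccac
Prl: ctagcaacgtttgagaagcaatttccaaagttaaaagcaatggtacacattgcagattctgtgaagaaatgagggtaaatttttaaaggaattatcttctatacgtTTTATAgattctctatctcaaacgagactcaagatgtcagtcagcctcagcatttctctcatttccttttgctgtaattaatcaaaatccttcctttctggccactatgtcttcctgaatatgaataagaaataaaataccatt
The Actg1 window held 6 matches to GGGCGG, overlapping ones counted, with 1 CCAAT and 1 CArG box, and its GC content was 79.2%. The Rplp0 window held 1 TATAAA, 2 CCAAT and 1 GGGCGG. Rpl41 had 1 GGGCGG alone, and Myl6 had 1 CCAAT alone. No exact match to these motifs was found in the window of Acta2, whose probe read 20844. That window does hold ccctatatgg and ccttgtttgg, each 1 letter off the strict CArG consensus, and tatata, 1 letter off TATAAA. Near matches were not counted in any window. Prl had 1 match to TATAAA, on the opposite strand, and a GC content of 33.6%. Its probe was not well above background at 4.56.

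The cytosolic ribosome was covered by 67 of 79 genes, and all 67 were well above background. Their median percentile was 99.5, against 55.7 over all 8413 genes, and 66 were in the brightest 10%, where all genes had 12.2%. The lowest was Rpl7a at 675, the next lowest Rpl13 at 2752. In all 37 ribosomal protein genes with several probes of this kind, every probe was above the chemosensory level, and in 35 every probe was in the brightest 10%. Over all 1366 genes with several such probes, every probe was above that level in 437 (32.0%). In other lists the count was 6 of 8 for oxidative phosphorylation, 6 of 6 for redox and iron, 4 of 6 for contractile smooth muscle, 4 of 7 for immediate-early and heat-shock, 2 of 5 for collagen processing, 1 of 2 for macrophage, 0 of 4 for matricellular and 0 of 13 for Notch and Wnt genes. The 2 ribosomal protein genes with a probe outside the brightest 10% were Rps16, with probes at 31682 and 686, and Rpl36a, with a highest probe at 9511 and a lowest at 102. Rpl28, a protein of the large subunit, had probes of the day 7 design alone at 38303 and 3194, while its probe on both designs read 7.37.

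Genes of mitochondrial energy supply and protein turnover were also bright. All 35 measured genes of oxidative phosphorylation were well above background, 34 lay above the chemosensory level and 24 in the brightest 10%, at a median percentile of 93.5. Atp5f1a, a catalytic-core subunit of ATP synthase, read 11218, Cox4i1, a nuclear-encoded subunit of cytochrome c oxidase, 10551, and Ndufv1, a flavoprotein subunit of complex I, 5772. Cox6b1 had a highest probe at 6479 and a lowest at 22.5, and Uqcrb had 7195 on its probe of this kind and 23.8 on the probe shared by both designs. The lowest was Cox8b, a subunit isoform typical of heart and skeletal muscle, at 20.9, and Cox6a2, another muscle isoform, read 66.3. Mitochondrial ribosomal proteins were measured through 27 genes, of which 26 were well above background at a median percentile of 88.6. All 20 genes of the proteasome, ubiquitin and the chaperonin were called, 14 of them in the brightest 10% (median percentile 92.0). The chaperonin subunit gene Tcp1 had 2 probes that read nearly alike, 3357 and 3034. Psmd12, a lid subunit of the proteasome, ranged from 2003 to 2437 over its replicate spots. Of 19 genes of glycolysis and hypoxia all were called (median percentile 88.9), with Ldha at 7269, Eno1 at 7889.8 and Pgk1 at 4651, and Hif1a at 201.

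Contractile smooth muscle genes were bright as a list, each gene read by its brightest probe. Of 23 contractile genes measured, 22 were well above background, 20 lay above the chemosensory level and 12 in the brightest 10%, at a median percentile of 91.3. As shares these were 95.7%, 87.0% and 52.2%, against 79.8%, 48.1% and 12.2% of all 8413 genes. The call alone does not check the tissue label, since 90.5% of skeletal and cardiac muscle genes were called too. Acta2, the actin isoform that defines smooth muscle, read 20844 ± 2084 (scanner error). Actg2, the enteric smooth muscle actin, had probes at 7563 and 7024, and Myh11, the smooth muscle myosin heavy chain, had probes at 3959 and 347. Smtn (smoothelin) read 13590.1 and 690.3, the phospholamban gene Pln 6912, and the amine oxidase gene Aoc3 7165. Itga8, the alpha8 integrin chain of contractile cells, ranged from 2867 to 3558 over 10 spots, while its probe on both designs read 38.5. The only member not well above background was Sorbs2, an adaptor of the actin cytoskeleton, at 3.62; its probe on both designs read 648. Disagreement was wide elsewhere too: Mylk (myosin light chain kinase) read 1394 and 12.7, and Pdlim7 18613 and 49.1. Transcription factors of the lineage were dimmer as a list: all 12 measured were called, but 7 lay above the chemosensory level and none in the brightest 10% (median percentile 63.8). Myocd, which encodes the coactivator of serum response factor that drives contractile genes, read 21.1, below that level, and Mef2d read 497.

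Cytoskeletal genes found in most cells were among the brightest lists, with all 14 measured genes above the chemosensory level and 11 in the brightest 10% (median percentile 95.8). The annexin gene Anxa2 read 28772, the regulatory light chain gene Myl12a 23319 and 15530.3 on 2 probes, and the tubulin gene Tuba1b 16251 and 2628. Tpm3 had 1 probe at 1154 and another at 6.61. Of 21 genes best known from skeletal or cardiac muscle, 19 were called (90.5%, against 79.8% of all 8413 genes). Above the chemosensory level lay 12 (57.1%, against 48.1% of all). In the brightest 10% lay 2 (9.52%, against 12.2% of all), and the median percentile was 68.1. These 2 were Eno3, the muscle enolase, at 1328 and Ryr2, the cardiac calcium release channel, whose probes read 1841 and 2.90, a range of 9.31 on the log2 scale. Actc1, cardiac actin, read 709.7, and the muscle creatine kinase gene Ckm 256. The fast and slow myosin genes Myh4 (3.8) and Myh7 (5.48) were not well above background.

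Matrix genes split by list. Enzymes and chaperones of collagen biosynthesis were measured in 15 genes, all well above background, 12 above the chemosensory level and 8 in the brightest 10% (median percentile 90.6). Serpinh1, the collagen chaperone HSP47, read 26231, Pcolce, which speeds the removal of the C-terminal propeptide, 23257 and 19738 on 2 probes, and Plod2, a lysyl hydroxylase, 7312. Crtap, a partner of prolyl 3-hydroxylase, read 4245 and 54.8. Bmp1, the propeptide protease itself, read 236, while its probe on both designs read 9593. Of the cross-linking oxidases, Loxl3 read 384 and Loxl4 28.9, the latter between 8.98 and 76.5 over its spots. All 10 collagen genes measured were called, at a median percentile of 77.0. Col6a2 (49315), Col1a1 (23087), Col5a1 (4459.7), Col14a1 (3682) and Col5a3 (1288) were in the brightest 10%. The other probe of Col14a1 read 494, outside the brightest 10%. The cartilage collagen gene Col2a1 read 87.4.

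Elastic fibre genes were all called (10 of 10, median percentile 79.5), with Emilin1 at 7975 and 103, Ltbp2 at 3426 and 325, and Efemp2, the fibulin that assembles elastin, at 2988. In each of the 3 elastic fibre genes with several probes, Eln included, every probe was above the chemosensory level. Of 21 matricellular proteins, proteoglycans and their kin, 19 were called (90.5%, against 79.8% of all 8413 genes). Above the chemosensory level lay 17 (81.0%, against 48.1% of all), and the median percentile was 72.9. Prelp, a leucine-rich proteoglycan, read 9249, Srpx2 8902, Ccn3 8697 and Vcan, the large aggregating proteoglycan versican, 1692. Some matrix genes read far lower here than on the probe common to both designs: fibronectin (Fn1) read 81.0 against 13373, and biglycan (Bgn) 1466 against 58499.8. Not well above background were Has2, a hyaluronan synthase, at 4.80 and the corneal proteoglycan gene Kera at 2.77. Of 7 basement membrane genes 4 were called: Lamc1 (9362 to 11325 over spots), Col4a1 (10406 and 43.1) and Agrn (3457 and 142) were in the brightest 10%, while Col4a4, at 17.6, was called but dim and Frem2, Lamc3 and Nid2 were not well above background. Of 12 matrix proteases and inhibitors 10 were called (83.3%, against 79.8% of all 8413 genes), at a median percentile of 84.4. They included Mmp14, a membrane-bound activator of gelatinase A, at 4956 to 5519 over its spots, and gelatinase A itself (Mmp2) at 1324 here and 27350.1 on the probe of both designs. Mmp1 (8.95) and Adamts18 (2.69) were not well above background. Tln1 (talin, which links integrins to actin) read 16480.2, Itgb5 2185 and Itgb4 5865, and all 9 genes of integrins and their partners were called.

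**Figure D4:**
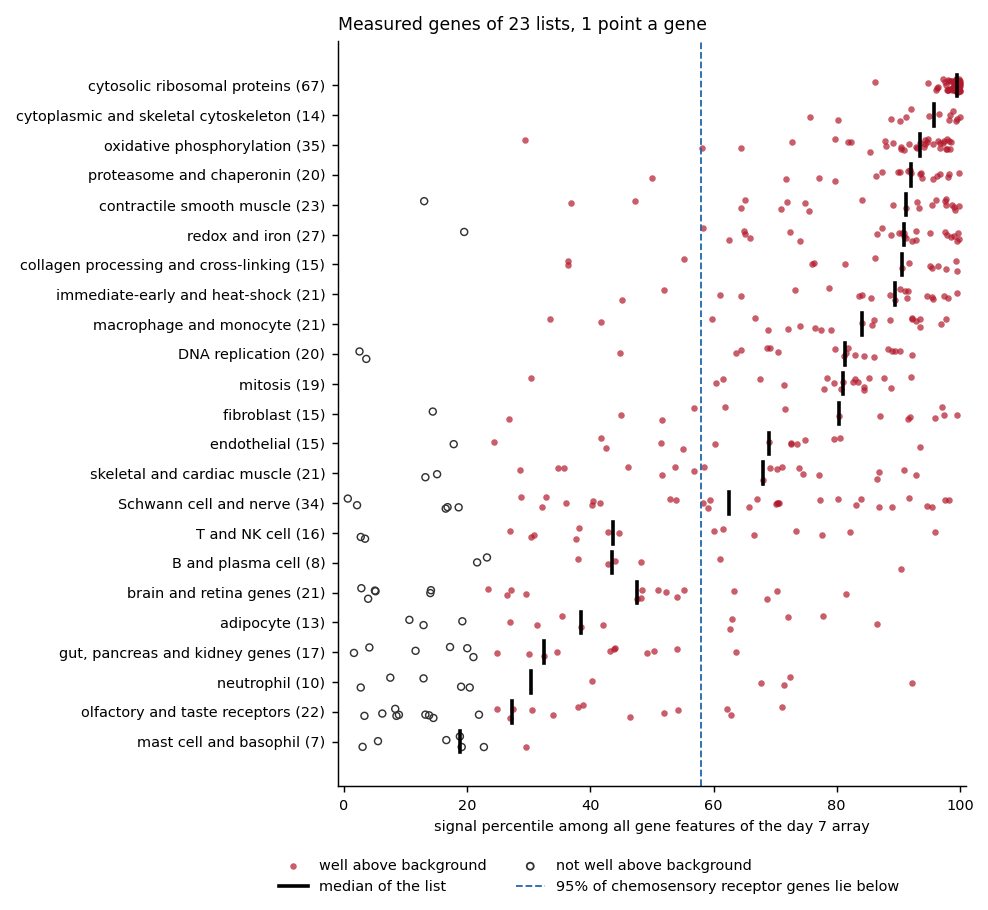
Signal percentile among all gene probes of the day 7 array (x axis) for each measured gene of 23 lists (y axis, number measured in brackets). Filled points were well above background and open points were not, black bars are list medians, and the dashed line is percentile 57.9, below which 95% of chemosensory receptor genes lie. Medians run from 99.5 for cytosolic ribosomal proteins to 18.8 for mast cell and basophil genes.

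Most cell cycle genes lay above the reference by their brightest probe, and few were in the brightest 10%. Where a gene had several probes, every probe was above it in 5 of 7 genes of mitosis and 3 of 6 of DNA replication. Bub1, a checkpoint kinase, read 363 and 18.7, and E2f1, a regulator of entry into S phase, 665 and 24.6. All 19 measured genes of mitosis were well above background and 18 lay above the chemosensory level, 1 of them in the brightest 10% (median percentile 81.0). The kinesin genes Kif22 and Kif11 read 1559 and 544, the latter between 512 and 583 over its spots. Nusap1, a spindle-associated protein, ranged from 827 to 1052 over its spots. Bub3, of the spindle checkpoint, had probes at 796 and 668, and Kif2c at 155 and 129. Ccna2, cyclin A2, read 444 and 243. Foxm1, the transcription factor of the mitotic programme, was below the reference at 22.1, and its probe on both designs read 273. Of 20 DNA replication genes, 18 were called, 17 lay above the chemosensory level and 2 in the brightest 10% (median percentile 81.4). The replicative helicase genes Mcm7, Mcm4, Mcm3 and Mcm2 read 1636, 1035, 543 and 393, and Mcm4 had a second probe at 35.0. Tk1 (thymidine kinase) read 1172 and Rrm2, of ribonucleotide reductase, 979 and 152. Dnmt1 (2.76), which keeps DNA methylation through replication, and Gins3 (2.78) were not well above background on their only probes.

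All 21 macrophage genes measured were well above background, 19 lay above the chemosensory level and 7 in the brightest 10% (median percentile 84.1). C1qb, a chain of complement C1q, read 7859. Aif1 (the calcium-binding protein Iba1) read 5065 and 3370.3 on 2 probes, Cd68 2109.5, Cd53 2100.2, Cx3cr1, the fractalkine receptor of monocytes, 1851, and Ncf1, a subunit of the phagocyte oxidase, 1657. The pan-leukocyte gene Ptprc (CD45) ranged from 831 to 984 over its spots, while its other probe read 2.99. Ccr2, the receptor of inflammatory monocytes, read 25.5 and Cd163, a scavenger receptor of resident macrophages, 110.4.

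Other leukocyte lists were dimmer. Of 10 neutrophil genes 5 were called (median percentile 30.3), among them Ncf1, which macrophages share. The granule genes Camp (10.7), Ctsg (3.60), Ltf (2.85) and Prtn3 (2.76) and the receptor gene Cxcr2 (9.21) were not well above background, while Csf3r read 154 and Retnlg 118. Of 7 mast cell and basophil genes 1 was called and none lay above the chemosensory level; the tryptase genes Tpsb2 and Tpsab1 read 6.82 and 2.77, and Kit 9.37. T and NK cell genes numbered 14 called of 16, with 7 above the reference (median percentile 43.7). The shares of this list were 87.5% and 43.8%, against 79.8% and 48.1% of all 8413 genes. Tbx21, the T-bet transcription factor, read 3670.5 on its single matched probe. Ccl5, a T cell chemokine, read 419.9, whereas Cd4 (30.4), Cd8b (30.8), Gata3 (36.9) and Cd27 (22.5) were below the reference. Of 8 B cell genes 6 were called and 2 lay above the reference, Pax5 at 1196 and Fcrla at 77.0 and 59.0. For Tbx21 and Pax5 no second probe could be matched.

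Complement, antigen presentation and cytokines gave a mixed picture. Of 13 complement genes 10 were called (76.9%, against 79.8% of all 8413 genes), at a median percentile of 82.5. Clu (clusterin) ranged from 15782 to 19131 over its spots, C4a read 4829, and Serping1, the C1 inhibitor, 4243. The liver-made components C8a (2.78) and Mbl2 (2.80) were not well above background. Of 14 genes of MHC class I and the immunoproteasome 13 were called, with B2m at 9675, RT1-A1 at 8221 and 3542, and the proteasome activator gene Psme2 at 4171 to 5044 over its spots. The MHC class II genes RT1-Db1 (1162 and 244), RT1-DMb (1020) and RT1-DMa (588) were called, and Ciita, their master regulator, was not, at 7.10. RT1 genes are a family of close copies, and which of them each probe reads was not tested.

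Of 30 chemokine and receptor genes 20 were called and 13 lay above the chemosensory level (median percentile 49.7). This was 66.7% and 43.3% of the list, against 79.8% and 48.1% of all 8413 genes. Ccl24 (1664), Cxcl16 (1276) and Ccl9 (1263) joined Cx3cr1 in the brightest 10%, and Ccl25 (2.81), Cxcl17 (2.70) and Ccr10 (3.04) were not well above background. Among 39 cytokine and receptor genes 30 were called (76.9%) and 15 lay above the reference (38.5%), at a median percentile of 53.0. In the brightest 10% were receptors or their chains, Csf2ra at 3697, Ifngr1 at 2985 and Il11ra1 at 2242, and the ligands Tnfsf12 (TWEAK) at 2170 and Il34, which signals through the CSF1 receptor, at 1301. Il17a (2.84), Il22 (2.75), Il12b (2.93) and Il23a (3.48) were not well above background. The interferon-stimulated genes were called in 18 of 20 (median percentile 68.3), with Oas1b at 7581, Ifi27 at 2455 and Mx1 at 380.5, and Oas3 at 2.77 not called.

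Fibroblast genes were called in 14 of 15, with 10 above the reference and 6 in the brightest 10% (median percentile 80.3). Ccdc80, a secreted matrix protein, ranged from 23402 to 27648 over its spots. Gsn (gelsolin) read 6240.1, Pdgfrb 5507 and the adventitial marker Pi16 1457 and 203. Endothelial genes were called in 14 of 15, with 9 above the reference and 1 in the brightest 10% (median percentile 69.0). As shares these were 93.3%, 60.0% and 6.67%, against 79.8%, 48.1% and 12.2% of all 8413 genes. Plvap, the diaphragm protein of fenestrae and caveolae, read 2087. Pecam1, the junction protein CD31, read 354, Cdh5, VE-cadherin, 128, Flt1, a VEGF receptor, 186, and Erg 171 and 74.9. Sele (15.1), an adhesion molecule of activated endothelium, was called but dim, and the Notch ligand gene Dll4 was not well above background on either probe (8.04 and 6.38).

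The nerve list and the blood list each held bright and dim members. In the list of Schwann cells and nerve 29 of 34 genes were called, 20 lay above the reference and 5 in the brightest 10% (median percentile 62.5). As shares these were 85.3%, 58.8% and 14.7%, near the 79.8%, 48.1% and 12.2% of all 8413 genes. Cldn19, of Schwann cell tight junctions, read 467 and 464, so that its 2 probes were close together. Mbp, myelin basic protein, read 7131 and 2.82, a range of 11.31 on the log2 scale. The sympathetic transmitter gene Npy read 9861, and S100b read 3078 against 4.36 on the probe of both designs. Ddc (2.75) and Calca (7.02 and 5.59) were not well above background. Erythrocyte and platelet genes were called in 8 of 11 (72.7%), with 6 above the reference (54.5%) and 4 in the brightest 10% (36.4%). Their median percentile was 66.2. The haemoglobin beta genes Hbb-b1, at 15039 and 13970.3, and Hbb, at 14132, were in the brightest 10%, as was Gp1bb, a chain of the platelet receptor for von Willebrand factor, at 12087 and 1508. The red cell genes Klf1 (7.75) and Epb42 (16.1) were not well above background.

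Adipocyte genes were called in 10 of 13, with 5 above the reference and none in the brightest 10% (median percentile 38.5). The shares called and above the reference were 76.9% and 38.5%, against 79.8% and 48.1% of all 8413 genes. Cidea, a lipid droplet protein of brown fat, read 698 and Pparg 270.1, while Adipoq, adiponectin, was not well above background at 3.51 and Lep, leptin, read 18.2. The part that these other cell types play in the levels above was not tested.

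Signalling lists had median percentiles from 43.2 to 67.3. Of 38 growth factor and receptor genes 35 were called and 22 lay above the chemosensory level (median percentile 67.3). Pdgfa, a smooth muscle mitogen, ranged from 4273 to 5405 over the spots of its brighter probe, with a second probe at 559. Igfbp3 read 3919, Igf1 2928 and Vegfa, with 4 probes, 1869 at the highest and 33.6 at the lowest. Fgfr2 read 1288 and 10.4. Pdgfb (35.3 and 8.82) was below the reference on both probes, and Pdgfc (3.62), Btc (3.86) and Egf (9.71) were not well above background. TGF-beta and BMP signalling had 23 of 30 genes called, 14 above the reference and 1 in the brightest 10% (median percentile 53.7). This was 76.7%, 46.7% and 3.33% of the list, against 79.8%, 48.1% and 12.2% of all 8413 genes. The activin antagonist gene Fst read 1511, Tgif1, a corepressor, 895, and the receptor gene Tgfbr1 604. Smad3, a transducer of TGF-beta, was not well above background at 2.79.

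Of 47 Notch and Wnt genes 38 were called, 18 lay above the reference and 2 in the brightest 10% (median percentile 43.2): the secreted factors Dkk3 (26633) and Frzb (2347). The shares of this list were 80.9%, 38.3% and 4.26%, against 79.8%, 48.1% and 12.2% of all 8413 genes. In none of the 13 genes of this list with several probes was every probe above the reference. Notch1 read 734 and Notch3, the receptor of arterial smooth muscle, 220.2. Receptors and channels of vascular tone were called in 47 of 57 (82.5%), with 25 above the reference (43.9%), at a median percentile of 54.8. Atp2a2, the calcium pump of the sarcoplasmic reticulum, read 2744, Ramp1, a chain of the CGRP receptor, 1910.1 and 1059.9, and Ace, angiotensin-converting enzyme, 1603 and 87.8. The endothelin receptor genes Ednra (42.6 and 2.62) and Ednrb (2.91) were dim or not well above background.

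Stress and redox genes were bright as lists, and lipid genes less so. All 21 immediate-early and heat-shock genes, a group known to respond to the handling of tissue, were called, 19 above the reference and 10 in the brightest 10% (median percentile 89.4). Hspa8, with 4 probes, read 27535 at the highest and 544 at the lowest, Jund 6537, Fos 3239 and Junb 3113, and at the low end Fosl1 read 40.4. Whether handling bears on these levels was not tested. Of 27 redox and iron genes 26 were called, 26 lay above the reference and 16 in the brightest 10% (median percentile 90.9). The ferritin light chain gene Ftl1 read 37038, the metallothionein gene Mt2A 26423 to 30805 over the spots of its brighter probe, the lipid peroxidase gene Gpx4 12792 and 2024, and Sod1 7121. Txnrd1, thioredoxin reductase, was not well above background at 9.75, while its probe on both designs read 120.1. Of 18 lipid handling genes 15 were called, 12 lay above the reference and 4 in the brightest 10% (median percentile 78.1). As shares these were 83.3%, 66.7% and 22.2%, against 79.8%, 48.1% and 12.2% of all 8413 genes. The scavenger receptor gene Cd36 read 2326 and 94.5, the lipid droplet gene Plin2 2244 and the oxidised LDL receptor gene Olr1 289.7. Lysosomal genes were called in 13 of 15 (86.7%, against 79.8% of all), at a median percentile of 84.6, with the progranulin gene Grn at 6601. Genes of coagulation and fibrinolysis were called in 10 of 11 (90.9%, against 79.8% of all), at a median percentile of 60.6. Plat, tissue plasminogen activator, read 14320.5. Tfpi, the tissue factor inhibitor, was not well above background at 3.44 (160.2 on the probe of both designs). All 6 measured imprinted or non-coding RNA genes were called (median percentile 80.6), with the non-coding Gas5 at 4498 to 5519 over its spots. Of 9 clock genes 8 were called (88.9%, against 79.8% of all), at a median percentile of 63.4. Dbp, an output regulator of the clock, read 5688 on the highest and 259 on the lowest of 3 probes.

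Of the 6 lists of genes best known from other organs, 5 had a median percentile below 55.7, the median of all 8413 genes; so had several other lists, such as vascular tone and Notch and Wnt signalling. Of 17 gut, pancreas and kidney genes 11 were called and 1, Aqp2 at 89.8, lay above the reference (median percentile 32.5). Of 21 brain and retina genes 15 were called and 4 lay above it (median percentile 47.6): the rod transducin gene Gnat1, at 321 to 521 over spots but 3.08 on its other probe, the astrocyte transporter gene Slc1a3 at 141 and 72.9, Pomc at 125 and Rcvrn at 88.3. Gria2, a glutamate receptor subunit, read 2.80 and 2.78 on 2 probes, and Slc1a2 read 2.79 and 2.76. Of 13 testis genes 9 were called (69.2%, against 79.8% of all 8413 genes). Above the reference lay 3, Odf2 (283 and 177), Dkkl1 (81.8) and Spata18 (69.1). Thyroid, thymus, cartilage and gland genes were called in 16 of 20 (80.0%, near the 79.8% of all), with 4 above the reference. The keratin gene Krt18 (879.6) and Pax8 (179) were among them and Gcm2, a factor of the parathyroid, was not called at 2.97. The sixth list, liver genes, had 4 measured members with a median percentile of 65.6: Tf (transferrin) read 1811, Rbp4 289 and Ttr 52.9, and Ahsg was not called at 2.92. The sensory receptor list itself, 22 genes that also count among the 919, had 13 called and 3 above the reference (median percentile 27.2). Among 51 lists together, 840 of 970 distinct genes were called (86.6%), against 79.8% of all 8413.

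No current RefSeq gene was matched for 9730 of the 19646 probes (49.5%), of which 6993 (71.9%) were well above background, and they made up 924 of the 2071 in the brightest 10% (44.6%) and 58 of the brightest 100. By kind of accession, curated RefSeq mRNA probes were called in 77.9% of 10590 (interval 77.1% to 78.7%), Ensembl transcripts in 74.1% of 2777, predicted RefSeq mRNAs in 72.7% of 1526, and probes known by their own name alone in 69.3% of 3948 (interval 67.8% to 70.7%). The share in the brightest 10% was 11.3%, 9.61%, 8.06% and 10.5% in the same order. The probe of highest signal on the whole array, at 123474, was one for an Ensembl transcript that could not be named here.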

How the data were processed

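The probes and gene lists were chosen with earlier results of these data known. The day 7 scanner file holds spot intensity values from Agilent Feature Extraction, version 11.0.1.1 per the file headers (10.7.3.1 per the submitters' processing notes), as a processed signal that is background-subtracted within the array and, per the file headers, not normalized between arrays. The uninjured file was read for its probe names only. From the 42877 gene spots, 624 with a non-uniformity or population outlier flag (1.46%) were left out, replicate spots were averaged as log2 values, and percentiles were taken over all gene probes. The interval of a share is an exact binomial one. Accessions were matched without versions to RefSeq (GRCr8), for names and promoters only, since the designs are on rn4. A gene was represented by its brightest probe. With 1 array there was no model and no test.

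The text names, among genes without a placeholder symbol, the 30 brightest, up to the 10 brightest and 6 dimmest or uncalled members of each of 51 lists (any member of lists under 20 measured), and genes whose probes disagreed by over 4-fold. Olr1 was moved from the sensory to the lipid list once its synonyms were read. Features outside this rule (Vom2r34, Vom1r55, Twnk), and the printed promoters, were chosen after their values were seen. Some genes that the rule selects are left out of the text. The alternatives were the detection call, flagged spots, the background correction (normexp, limma 3.58.1, R 4.3.3), the probe that stands for a gene, and the authors' table. The planned use of the mean spot signal was replaced by the median signal, the column the file holds. The authors' deposited table gives log2 values, with a normalization not given in the sources used here. Other computation used Python 3.11.15 and pandas 2.3.3. Only the averaging, percentile and calling steps were tested on simulated spots, whose spread was the same at every signal level.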

Additional observations from a re-analysis of the deposited data

How the results depend on the processing

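The share of probes called well above background, 75.0%, was 87.0% with the scanner's weaker call of a positive and significant signal, 79.8% by named gene and 77.9% for curated RefSeq mRNA accessions. The SD of 1 probe between probes of a gene, 2.16 on the log2 scale, was 1.87 for probes well above background only and 1.32 with the normexp correction, whose offset of 50 compresses low signals. The count of called probes, 14743, became 17085 with the weaker call and 14862 with flagged spots kept. The count of called list genes, 840, became 906 with the weaker call, 840 with flagged spots kept and 800 with a gene taken as the median of its probes. An alternative chosen after the data were seen, brighter than 95% of chemosensory receptor genes, gave 616. Of 51 lists, 2 moved by over 1.5 times under the weaker call, neutrophil and mast cell genes (8 and 5 called in place of 5 and 1), and none with flagged spots kept or the median of probes. Percentiles of 485 named genes shifted by a median of 0.3 points with normexp and by at most 14.2, but by up to 54.1 with the median of probes. With the day 7 column of the authors' deposited table the percentile of 241 of 249 genes moved, by a median of 8.7 and at most 85.5 points, over fewer and mostly brighter rows. Levels under 30 intensity units are limited by spot noise. No paired analysis was possible because each group has 1 array.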

Other observations

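The authors' deposited table has 9260 rows, of which 3936 are probes of the day 7 design alone (20% of them). Of these 3936, 3898 (99.0%) were well above background in the scanner file, against 69.0% of the 15710 probes that the authors' deposited table leaves out. Across the 3936 probes, which share 1 array and are not independent, the day 7 column of the authors' deposited table correlated with the scanner's log2 signal with r 0.96 and rho 0.95, and 3408 values lay within 1 of it. In 56 the 2 differed by over 3 on the log2 scale, 49 of them with the higher value in the authors' deposited table. For Eln the authors' deposited table gives 15.42 for a probe at 9.17 in the scanner file, and for Twnk, the mitochondrial helicase, it gives 13.91 for a probe at 5.46. The scanner file has a second probe of each gene, at log2 signals of 16.09 (Eln) and 14.78 (Twnk). All 3936 rows also carry a value in the uninjured and day 21 columns of the authors' deposited table, although these probe names are absent from the scanner file of the uninjured array.

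By chromosome of the RefSeq annotation, the share of named genes in the brightest 10% was 12.2% over all 8413 genes. It ran from 8.50% of 200 genes on chromosome 18 to 21.4% of 220 genes on chromosome 19. Of 33 beta-defensin genes, peptides of epithelial defence, 21 were called (63.6%), at a median percentile of 35.2. Keratin genes were called in 18 of 30 (60.0%), at 36.5. Both shares were below the 79.8% of all 8413 genes, and 52.6% of chemosensory receptor genes were called.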
